A study of Homo sapiens with 21 samples.

Results

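The collagen genes of hTERT-HPNE cells were followed through oxidative stress and DNA double-strand breaks. Members were all rows whose gene symbol has the form COL, a number, A and a number, and whose value varies between libraries. There were 43 such genes among 19694 varying genes. The cells are an immortalized, nontransformed human pancreatic line, so every library comes from 1 cell line. Untreated cells were harvested at 0 h, and treated cells 4, 8 or 24 h after 300 μM H2O2, an oxidant, or 400 ng/ml neocarzinostatin (NCS), a radiomimetic drug that breaks DNA. All treated cells also received fresh medium. No untreated cells were harvested at 4, 8 or 24 h, so treatment, medium change and time in culture cannot be told apart in the comparisons with untreated cells, whereas H2O2 and NCS can be compared at the same time. Each of the 7 groups had 3 biological replicates, 21 libraries in all. The deposited values were rLog values, which are log2-scaled, normalized for library size and shrunk toward the mean of the gene, most strongly where reads are few. Counts were not analysed here. Sequencing depth is therefore unknown, and neither counting intervals nor limits of detection are given. Library medians ranged from 7.14 to 7.19.

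Collagens are the triple-helical proteins of the extracellular matrix. Fibrillar collagens, such as types I, III and V, assemble into the fibrils that carry tension, and type IV forms the sheet-like network of basement membranes. Type VI forms beaded filaments around cells, type VII the anchoring fibrils that tie epithelium to stroma, and the FACIT collagens decorate the surface of fibrils. Their chains are hydroxylated and folded in the endoplasmic reticulum, trimmed and cross-linked outside the cell, and bound by integrins and discoidin domain receptors. Cells of mesenchymal character are known as the main source of fibrillar collagens.

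The label of the cells was checked against markers. All 6 mesenchymal and progenitor markers had a mean rLog of at least 9, with VIM at 17.03 and NES, a marker of progenitors, at 12.03. Of 8 duct and epithelial markers, 1 reached 9, KRT18 at 11.62, and 4 were under 4, among them EPCAM at -1.76, KRT19 at 0.60 and CDH1 at 3.79. Several defining epithelial markers were thus near-silent. The acinar, islet, leukocyte and endothelial markers tested were all under 4.

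The 250 bases upstream of the RefSeq start (GRCh38.p14) are shown for 3 members that the results turn on. COL12A1 fell after H2O2, COL7A1 rose after both agents, and COL4A5 shares its upstream stretch with COL4A6, which like it was higher at 24 h after both agents. Capitals mark GGGCGG, the core of the GC box, and CCAAT, on either strand. The sequences run 5′ to 3′ on the strand of the named gene.
COL12A1: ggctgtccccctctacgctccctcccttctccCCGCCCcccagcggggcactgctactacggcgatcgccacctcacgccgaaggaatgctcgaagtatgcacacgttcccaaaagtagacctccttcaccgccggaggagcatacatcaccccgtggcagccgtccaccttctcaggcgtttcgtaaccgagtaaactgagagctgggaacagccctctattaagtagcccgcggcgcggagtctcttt
COL7A1: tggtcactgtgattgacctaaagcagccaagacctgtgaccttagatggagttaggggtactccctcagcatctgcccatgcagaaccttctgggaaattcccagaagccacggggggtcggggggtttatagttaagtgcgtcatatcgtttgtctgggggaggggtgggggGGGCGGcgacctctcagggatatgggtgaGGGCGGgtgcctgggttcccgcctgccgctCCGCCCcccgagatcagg
COL4A5: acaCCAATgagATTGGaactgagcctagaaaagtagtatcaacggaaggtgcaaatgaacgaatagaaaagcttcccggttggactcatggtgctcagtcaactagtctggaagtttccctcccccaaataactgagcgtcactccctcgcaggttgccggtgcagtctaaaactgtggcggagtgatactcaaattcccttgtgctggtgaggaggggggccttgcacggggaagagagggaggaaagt

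These stretches lie at chr6:75206054-75206303 (minus strand), chr3:48595330-48595579 (minus strand) and chrX:108439588-108439837 (plus strand). The COL12A1 stretch held 1 GGGCGG match and the COL7A1 stretch 3, while the COL4A5 stretch held 2 CCAAT matches and no GGGCGG match. Over 35116 RefSeq windows of the same length, GGGCGG was found on either strand in 42.6% and CCAAT in 32% of windows. Of the 43 windows available for 31 collagen genes, 24 held GGGCGG and 12 held CCAAT at least once. The letters TATAAA, which the TATA-binding protein recognizes, were in 10.7% of all windows and in 8 of the collagen windows. TGANTCA, the letters bound by AP-1, were in 6.57% of all windows and in 1 of the collagen windows. A match describes the letters and not a bound site.

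Collagen levels spanned nearly the whole range of the values. By mean rLog over all libraries, 16 genes were abundant (at least 10), 9 intermediate (4 to under 10) and 18 near-silent (under 4). Of 11 fibrillar genes, 5 were abundant, 4 intermediate and 2 near-silent. Of 6 basement membrane genes, 3 were abundant, and of 10 FACIT genes only COL12A1 was. The beaded filament genes were divided, with COL6A1, COL6A2 and COL6A3 abundant and COL6A5 and COL6A6 near-silent. At the bottom, COL6A5 at -2.31, COL22A1 at -2.18 and COL9A1 at -1.90 were at the lowest value of the gene, within 0.01, in at least 20 of 21 libraries.

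To compare levels between genes, the log2 of the transcript length in kilobases (GENCODE v29) was subtracted from the mean rLog. On this per-length level, COL1A1, the α1 chain of type I collagen, was highest at 15.07, followed by COL1A2, the α2 chain, at 13.90. The 3 abundant type VI chains followed, with COL6A2 at 13.11, COL6A3 at 13.01 and COL6A1 at 12.94. The main basement membrane chains COL4A2 and COL4A1 had per-length levels of 12.73 and 12.48, above COL3A1 at 12.11. The shares of the single collagens in the summed linear values, which are not per length, were led by COL1A1 with 36.8% ± 0.211 (SD, n = 3) in untreated cells. COL1A2 made up 13.1% ± 0.343 and COL6A3 11.2% ± 0.198 of that sum.

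A member was counted as changed at an adjusted p under 0.05 from limma, fitted over all 19694 genes. This limit passed very many genes of the table, so each count of members stands beside the share over all genes. In H2O2-treated cells, 21 of 43 collagens differed from untreated cells at 4 h (10 higher, 11 lower), against 45.9% of all genes (26.2% higher, 19.7% lower). At 8 h 22 differed (6 higher, 16 lower), against 37.4% (18.8% higher, 18.6% lower). After 24 h the count was 22 (8 higher, 14 lower), against 40% (20.2% higher, 19.9% lower). The split at 24 h was 9 higher and 10 lower under quantile normalization, and 16 and 12 with the medians of abundant genes aligned. In NCS-treated cells, 10 differed at 4 h (9 higher, 1 lower), against 17.2% (7.47% higher, 9.72% lower). At 8 h the count was 6 (5 higher, 1 lower), against 23.9% (10.5% higher, 13.3% lower). The direction at 8 h after NCS depended on the scaling, with 3 higher and 10 lower when library medians were aligned and 14 higher and 1 lower when the medians of abundant genes were. At 24 h after NCS 13 differed (12 higher, 1 lower), against 38% (19.6% higher, 18.4% lower). The counts in H2O2 were thus somewhat above the share over all genes at 8 and 24 h and near it at 4 h, while those in NCS were above it at 4 h and below it at 8 and 24 h. The count at 4 h after NCS was 5 without untreated replicate 1 and 6 without NCS 4 h replicate 1 or 2. The median difference over all collagens lay between -0.01 and 0.02 in the 6 groups, and over all genes within 0.01 of 0.

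**Figure D1:**
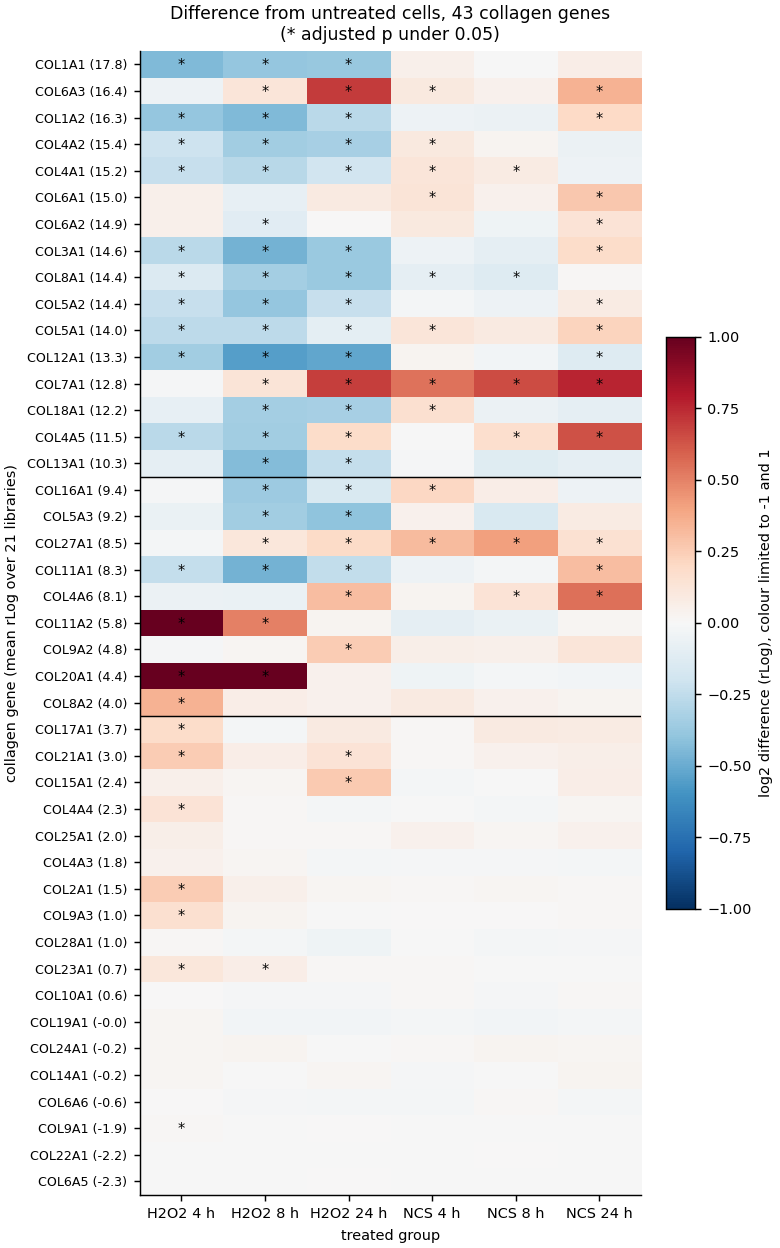
Log2 difference (rLog) from untreated cells for 43 collagen genes, in rows ordered by mean rLog (in brackets), in the 6 treated groups; asterisks mark an adjusted p under 0.05, and the lines divide abundant, intermediate and near-silent genes. Blue cells fill the upper left, the abundant genes in H2O2, while COL7A1 is red in 5 of 6 groups and COL11A2 and COL20A1 are deep red in H2O2 at 4 and 8 h.

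The abundant fibrillar and basement membrane collagens moved together after H2O2. All 8 of them (COL1A1, COL1A2, COL3A1, COL5A1, COL5A2, COL4A1, COL4A2 and COL4A5) were lower than in untreated cells at 4 h and at 8 h, with median log2 differences of -0.26 and -0.37. The share of all genes that were lower was 19.7% at 4 h and 18.6% at 8 h, and that of all genes at the abundant level 34.4% and 34.3%. At 24 h 7 of the 8 were lower, against 39.1% of genes at that level, and COL4A5 was higher. Under quantile normalization 4 were lower at 24 h. The 8 were lower at 4 and 8 h under each alternative that was run, including each scaling, the block for replicate number and the fits without single libraries, apart from added limits on the size of the difference. The fall at 4 and 8 h was modest, between 1.16-fold and 1.39-fold on the rLog scale, which shrinks differences most strongly where reads are few. In bulk RNA, less RNA per cell and fewer cells that make the RNA cannot be told apart.

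COL1A1, on chromosome 17 (chr17:50183289-50201632, GENCODE v29, GRCh38), had rLog values of 17.94, 18.00 and 17.98 in untreated cells, 17.55, 17.53 and 17.51 in H2O2 at 4 h, 17.53, 17.69 and 17.53 at 8 h, then 17.68, 17.58 and 17.52 at 24 h. All 9 H2O2 libraries lay below the untreated ones. The difference was largest at 4 h (log2 difference -0.44, SE 0.04, adjusted p = 1.85e-08, n = 3 against 3, 1.36-fold lower) and remained -0.39 (adjusted p = 1.15e-07) at 8 h and -0.38 (adjusted p = 8.32e-08) at 24 h. NCS libraries lay at 18.04, 18.03 and 18.00 at 4 h, 17.98, 17.96 and 17.96 at 8 h, then 18.03, 18.06 and 18.03 at 24 h, and none of the differences passed. Under quantile normalization the 24 h difference in H2O2 changed sign, to 0.062 (adjusted p = 0.529), while those at 4 and 8 h stayed lower. COL1A1 ranked between 3 and 6 among all genes in every library, and quantile normalization sets a value by its rank alone. The part of this in the change of sign at 24 h was not tested.

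COL1A2, the partner chain of COL1A1 in type I collagen, had 16.49, 16.46 and 16.50 in untreated cells, 16.09, 16.09 and 16.10 at 4 h, 15.96, 16.18 and 16.01 at 8 h, then 16.25, 16.19 and 16.19 at 24 h in H2O2. It was lowest at 8 h (log2 difference -0.44, SE 0.04, adjusted p = 2.94e-08) and partly back at 24 h (-0.27, adjusted p = 5.14e-06). In NCS it had 16.44, 16.43 and 16.43 at 4 h, 16.40, 16.42 and 16.44 at 8 h, then 16.68, 16.68 and 16.70 at 24 h. The 24 h libraries were all above the untreated ones, with a difference of 0.20 (adjusted p = 0.000181). Its fall at 24 h after H2O2 did not pass under quantile normalization (-0.0654, adjusted p = 0.403).

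COL3A1, the chain of type III collagen, which copolymerizes with type I, had 14.75, 14.72 and 14.74 in untreated cells. It had 14.46, 14.47 and 14.46 at 4 h, 14.18, 14.40 and 14.21 at 8 h, then 14.44, 14.34 and 14.34 at 24 h in H2O2, with differences of -0.27, -0.47 and -0.37. The untreated and H2O2 libraries did not overlap at any time, and the largest fall was at 8 h (SE 0.04, adjusted p = 2.34e-08). After NCS it had 14.68, 14.69 and 14.67 at 4 h, 14.63, 14.65 and 14.67 at 8 h, then 14.92, 14.90 and 14.94 at 24 h, which was higher than in untreated cells at 24 h (0.18, adjusted p = 0.000886). This rise did not pass under quantile normalization (0.107, adjusted p = 0.0769).

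The type V chains, which regulate the diameter of type I fibrils, also fell after H2O2. COL5A2 had 14.56, 14.57 and 14.55 in untreated cells, 14.32, 14.33 and 14.33 at 4 h, 14.11, 14.26 and 14.13 at 8 h, then 14.33, 14.33 and 14.33 at 24 h in H2O2. The differences of COL5A2 were -0.23, -0.39 and -0.23, all past the limit. COL5A1 had 14.01, 14.11 and 14.07 in untreated cells, 13.84, 13.81 and 13.77 at 4 h, 13.77, 13.88 and 13.77 at 8 h, then 14.03, 13.96 and 13.90 at 24 h in H2O2. Its difference was -0.26 at 4 h and at 8 h, while that at 24 h (-0.10, adjusted p = 0.0269) overlapped with the untreated range and was lost when untreated replicate 2 or 3, or H2O2 24 h replicate 2 or 3, was left out. In NCS at 4, 8 and 24 h, COL5A2 had 14.51, 14.55 and 14.56, then 14.50, 14.51 and 14.52, then 14.65, 14.62 and 14.65. COL5A1 had 14.17, 14.20 and 14.18, then 14.18, 14.14 and 14.13, then 14.29, 14.32 and 14.25, and both were higher than in untreated cells at 24 h (0.08 and 0.22). The call of COL5A2 was lost with 1 library left out.

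Among the intermediate fibrillar genes, COL11A1, a nucleator of thin fibrils, fell at 4, 8 and 24 h in H2O2 (-0.24, -0.47 and -0.25) and was higher in NCS at 24 h (0.31, adjusted p = 0.000706). COL5A3, the third type V chain, was lower in H2O2 at 8 h (-0.35) and 24 h (-0.40), and its 4 h difference of -0.07 did not pass. COL27A1, a fibrillar collagen of cartilage, went the other way. It was higher in NCS at 4, 8 and 24 h (0.32, 0.41 and 0.15) and in H2O2 at 8 and 24 h (0.11 and 0.19), where the 8 h call was lost with 1 library left out.

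COL4A1 and COL4A2 encode the chains of the most common type IV trimer and lie head to head on chromosome 13 (chr13:110148963-110307233 on the minus strand and chr13:110305812-110513209 on the plus strand). COL4A1 had 15.22, 15.33 and 15.32 in untreated cells, 15.07, 15.06 and 15.04 at 4 h, 14.97, 15.08 and 14.99 at 8 h, then 15.10, 15.09 and 15.10 at 24 h in H2O2. COL4A2 had 15.45, 15.60 and 15.59 in untreated cells, 15.36, 15.35 and 15.29 at 4 h, 15.14, 15.24 and 15.21 at 8 h, then 15.25, 15.21 and 15.19 at 24 h in H2O2. Both were below all untreated libraries at each time, with COL4A1 at -0.23, -0.28 and -0.19 and COL4A2 at -0.21, -0.35 and -0.33. In NCS at 4, 8 and 24 h, COL4A1 had 15.41, 15.43 and 15.39, then 15.34, 15.38 and 15.39, then 15.23, 15.24 and 15.26. COL4A2 had 15.66, 15.67 and 15.61, then 15.54, 15.59 and 15.60, then 15.48, 15.50 and 15.49. COL4A1 was higher in NCS at 4 h (0.12, adjusted p = 0.00529), and the calls of COL4A2 at 4 h and COL4A1 at 8 h were lost with 1 library left out. Under quantile normalization the call of COL4A1 in NCS at 4 h was also lost (0.0605, adjusted p = 0.0678).

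COL12A1, a FACIT collagen on the surface of type I fibrils (chr6:75084326-75206051), had the largest fall of the 16 abundant members at 8 and 24 h. It had 13.53, 13.51 and 13.50 in untreated cells, 13.14, 13.22 and 13.13 at 4 h, 12.89, 13.09 and 12.92 at 8 h, then 12.98, 13.01 and 13.00 at 24 h in H2O2. The difference was -0.35 at 4 h, -0.55 at 8 h (SE 0.04, adjusted p = 1.6e-09) and -0.52 at 24 h. In NCS it had 13.52, 13.52 and 13.57 at 4 h, 13.48, 13.47 and 13.51 at 8 h, then 13.40, 13.36 and 13.39 at 24 h, lower than untreated cells at 24 h (-0.13, adjusted p = 0.00737). It was the only member lower in NCS at 24 h.

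**Figure D2:**
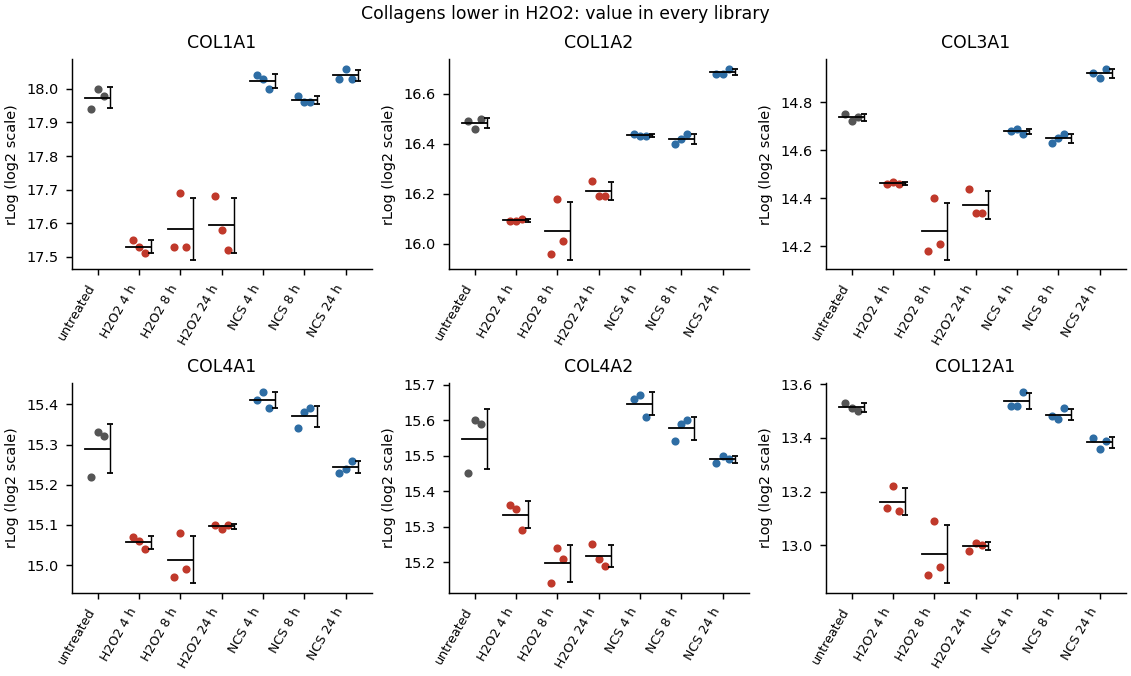
rLog value (log2 scale; each panel has its own range) of COL1A1, COL1A2, COL3A1, COL4A1, COL4A2 and COL12A1 in the 7 groups, with 1 point per library and the mean ± SD of 3 libraries as line and bar. The H2O2 libraries (red) lie below the untreated libraries (grey) in all 6 panels, and 1 H2O2 8 h library lies above the other two of its group.

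The network collagen COL8A1 had 14.58, 14.64 and 14.55 in untreated cells, 14.47, 14.41 and 14.48 at 4 h, 14.22, 14.31 and 14.22 at 8 h, then 14.24, 14.21 and 14.22 at 24 h in H2O2. Its differences were -0.14, -0.34 and -0.37, with no return by 24 h. In NCS at 4, 8 and 24 h it had 14.46, 14.53 and 14.52, then 14.48, 14.43 and 14.48, then 14.58, 14.62 and 14.60, and it was the only member lower in NCS at 4 h (-0.09, adjusted p = 0.0354, lost with 1 library left out) and at 8 h (-0.13, adjusted p = 0.00205).

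COL18A1, a multiplexin that carries the endostatin sequence, had 12.23, 12.35 and 12.40 in untreated cells, 12.26, 12.29 and 12.18 at 4 h, 11.93, 12.04 and 11.99 at 8 h, then 12.06, 12.00 and 11.93 at 24 h in H2O2. It was lower at 8 h (-0.34) and 24 h (-0.33), and the 4 h difference of -0.08 did not pass. In NCS it had 12.54, 12.49 and 12.42 at 4 h, 12.26, 12.29 and 12.24 at 8 h, then 12.27, 12.26 and 12.19 at 24 h. The transmembrane collagen COL13A1 had 10.39, 10.55 and 10.54 in untreated cells, 10.45, 10.36 and 10.41 at 4 h, 10.01, 10.15 and 10.04 at 8 h, then 10.32, 10.27 and 10.17 at 24 h in H2O2, lower at 8 h (-0.43) and 24 h (-0.24). In NCS it had 10.43, 10.51 and 10.51 at 4 h, 10.40, 10.37 and 10.34 at 8 h, then 10.38, 10.45 and 10.38 at 24 h, and no difference passed. COL16A1, a FACIT collagen of intermediate level, was lower in H2O2 at 8 h (-0.36) and at 24 h (-0.15, lost with 1 library left out) and higher in NCS at 4 h (0.21, adjusted p = 0.00368).

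In the H2O2 8 h group, replicate 2 had the highest value of the 3 libraries for 16 of the 16 members that were lower at that time. With each library left out in turn, between 20 and 21 members were changed at 8 h. The mesenchymal marker list did not fall with the collagens at 4 h, when 2 of its 6 genes were higher and 2 lower. VIM (0.17) and CDH2 (0.14) were higher, and NES and PDGFRB (both -0.13) lower. The log2 of its summed level was 17.22 to 17.28 in untreated cells and 17.37 to 17.41 in H2O2 at 4 h. That sum is mostly VIM, with means of 17.05 and 17.22 in these groups, and does not describe the whole list. Of the 8 duct and epithelial markers, 3 keratin genes (KRT7, KRT8 and KRT18) were higher in H2O2 at 4 h and none lower. Their summed level was 11.77 to 11.84 in untreated cells, 11.90 to 11.95 in H2O2 and 11.96 to 12.02 in NCS. This sum is mostly KRT18, with means of 11.64, 11.72 and 11.81 in these groups. Of the 3 endothelial markers, PECAM1 (0.33) and VWF (0.26) were higher in H2O2 at 4 h, while CDH5 was at -2.04. The part of these markers in the 4 h results was not tested. At 24 h 5 of the 6 mesenchymal markers were lower in H2O2, PDGFRB being the exception. The summed level of the list, again mostly VIM, was 16.99 to 17.01 in H2O2 and 17.10 to 17.11 in NCS. All 6 markers stayed at a mean of at least 9, and their part in the collagen results at 24 h was not tested.

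A smaller group was higher at 24 h after both agents. COL6A3, the large chain of type VI collagen (chr2:237324003-237414375), had 16.24, 16.25 and 16.29 in untreated cells. In H2O2 it had 16.19, 16.24 and 16.21 at 4 h, 16.34, 16.42 and 16.39 at 8 h, then 16.92, 16.97 and 16.99 at 24 h, an increase of 0.70 (adjusted p = 2.06e-14) or 1.63-fold at 24 h. In NCS it had 16.33, 16.35 and 16.39 at 4 h, 16.30, 16.28 and 16.30 at 8 h, then 16.59, 16.61 and 16.62 at 24 h, with 0.10 (adjusted p = 0.0048) at 4 h and 0.35 (adjusted p = 3.37e-10) at 24 h. The 4 h call after NCS was lost under quantile normalization. Its difference in H2O2 at 4 h did not pass (-0.05, adjusted p = 0.117) and was 0.145 (adjusted p = 0.00149) under quantile normalization, under which its 4 h difference between H2O2 and NCS also turned, from -0.14 to 0.145.

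The partner chains of COL6A3 did not follow it in H2O2. COL6A1 had 14.91, 15.00 and 14.97 in untreated cells, 15.05, 14.99 and 14.99 at 4 h, 14.88, 14.91 and 14.83 at 8 h, then 15.14, 15.06 and 14.95 at 24 h in H2O2, and no difference passed (0.09 at 24 h, adjusted p = 0.0715). COL6A2 had 14.84, 14.89 and 14.90 in untreated cells, 14.98, 14.94 and 14.88 at 4 h, 14.78, 14.79 and 14.74 at 8 h, then 14.97, 14.88 and 14.79 at 24 h in H2O2, with a small fall at 8 h (-0.11, adjusted p = 0.0363, lost with 1 library left out). In NCS at 4, 8 and 24 h, COL6A1 had 15.10, 15.07 and 15.08, then 15.05, 15.00 and 14.93, then 15.23, 15.26 and 15.19. COL6A2 had 15.01, 14.98 and 14.95, then 14.88, 14.85 and 14.78, then 15.04, 15.06 and 14.96. At 24 h after NCS all 3 chains were higher (COL6A3 0.35, COL6A1 0.27 and COL6A2 0.14). The call of COL6A2 there was lost under quantile normalization (0.0694, adjusted p = 0.28).

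COL7A1, the anchoring fibril collagen (chr3:48564073-48595267), had 12.37, 12.52 and 12.42 in untreated cells. It had 12.91, 13.02 and 12.99 at 4 h, 13.10, 13.06 and 13.10 at 8 h, then 13.14, 13.23 and 13.23 at 24 h in NCS, all above the untreated libraries. The NCS differences were 0.54, 0.65 and 0.76 (24 h adjusted p = 3.25e-12). In H2O2 it had 12.47, 12.42 and 12.40 at 4 h, 12.55, 12.55 and 12.61 at 8 h, then 13.16, 13.12 and 13.08 at 24 h. The rise there was late, with -0.01 at 4 h (not passed), 0.13 at 8 h and 0.69 at 24 h, when H2O2 and NCS no longer differed past the limit (-0.08, adjusted p = 0.147).

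COL4A5 and COL4A6, chains of the type IV trimers found in kidney and other specialized basement membranes, lie head to head on chromosome X with 346 bases between their starts. COL4A5 (chrX:108439844-108697545) had 11.46, 11.46 and 11.47 in untreated cells, 11.21, 11.16 and 11.22 at 4 h, 11.04, 11.23 and 11.07 at 8 h, then 11.63, 11.65 and 11.64 at 24 h in H2O2. It was lower at 4 h (-0.27) and 8 h (-0.35) and higher at 24 h (0.18). In NCS it had 11.45, 11.46 and 11.47 at 4 h, 11.64, 11.65 and 11.62 at 8 h, then 12.07, 12.10 and 12.13 at 24 h, with differences of 0.17 at 8 h and 0.64 at 24 h. COL4A6 (chrX:108155607-108439497) had 8.00, 7.97 and 8.07 in untreated cells, 8.24, 8.34 and 8.38 in H2O2 at 24 h and 8.48, 8.63 and 8.58 in NCS at 24 h. Its differences were 0.31 (adjusted p = 2.6e-05) and 0.55 (adjusted p = 2e-08), and no early fall passed (-0.06 and -0.07 in H2O2).

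**Figure D3:**
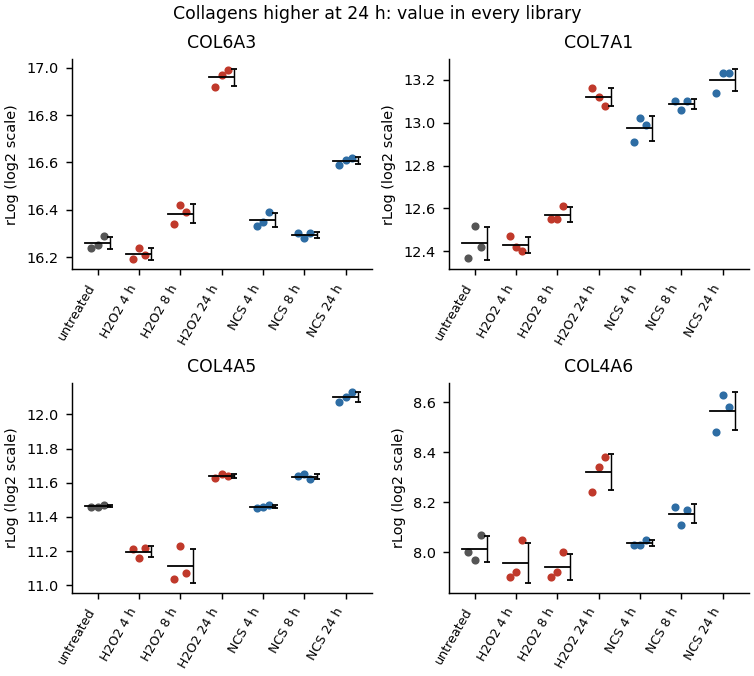
rLog value (log2 scale; each panel has its own range) of COL6A3, COL7A1, COL4A5 and COL4A6 in the 7 groups, with 1 point per library and the mean ± SD of 3 libraries. In all 4 panels the 24 h libraries of H2O2 (red) and NCS (blue) lie above the untreated libraries (grey), and COL7A1 is already raised at 4 h in NCS.

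The direct comparison of H2O2 with NCS at the same time does not involve untreated cells. At 4 h 27 of 43 members differed (12 higher in H2O2, 15 lower), against 44.4% of all genes. At 8 h 23 differed (4 higher, 19 lower), against 34.1%, and at 24 h 19 (2 higher, 17 lower), against 21.9%. Quantile normalization gave 6 higher and 15 lower at 4 h. With the medians of abundant genes aligned, the split was 9 and 20 at 4 h and 5 and 17 at 24 h. Of all genes, 18% were lower and 26.3% higher in H2O2 at 4 h. At 8 h these shares were 15.4% and 18.7%, and at 24 h 10.9% and 11%. All 8 abundant fibrillar and basement membrane collagens were lower in H2O2 at each time, with medians of -0.33, -0.38 and -0.38. Among all genes at the abundant level, 29.6%, 26% and 27.4% were lower at these times.

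At 24 h the widest gaps were those of COL11A1 (-0.56), COL3A1 (log2 difference -0.55, SE 0.04, adjusted p = 9.55e-09), COL5A3 (-0.48), COL1A2 (-0.47), COL4A5 (-0.46) and COL1A1 (-0.45). The COL1A1 gap did not pass under quantile normalization (-0.124, adjusted p = 0.209). COL6A3 was the only abundant member that was higher in H2O2 at 24 h (0.35, adjusted p = 2.92e-09). The other member higher in H2O2 at 24 h was COL15A1, near-silent, whose call was lost with 1 library left out.

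The change over time was compared between the agents, and the counts of members were close to the shares over all genes. From 4 to 24 h in H2O2, 26 members differed (9 higher, 17 lower), against 55.5% of all genes (23.1% higher, 32.4% lower). In NCS 18 differed (12 higher, 6 lower), against 38.3% (19.5% higher, 18.8% lower). The difference between H2O2 and NCS itself changed from 4 to 24 h for 18 members (4 higher, 14 lower), against 39.4% (16.6% higher, 22.7% lower). These splits moved with the scaling. Under quantile normalization, 13 were higher and 11 lower from 4 to 24 h in H2O2, and the difference between the agents changed upward for 6 and downward for 9. With the medians of abundant genes aligned, these were 14 and 13, and 9 and 11. With library medians aligned, the split in H2O2 was 9 and 17, and the difference between the agents changed upward for 4 and downward for 26. In NCS, COL1A2, COL3A1 and COL11A1 rose from 4 to 24 h (0.25, 0.23 and 0.37), while COL4A1, COL4A2 and COL18A1 fell (-0.16, -0.16 and -0.24). The fall of COL4A2 did not pass under quantile normalization (-0.0109, adjusted p = 0.878). In H2O2, COL8A1 and COL18A1 fell further (-0.23 and -0.25), and COL5A1 rose (0.16, adjusted p = 0.000818).

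**Figure D4:**
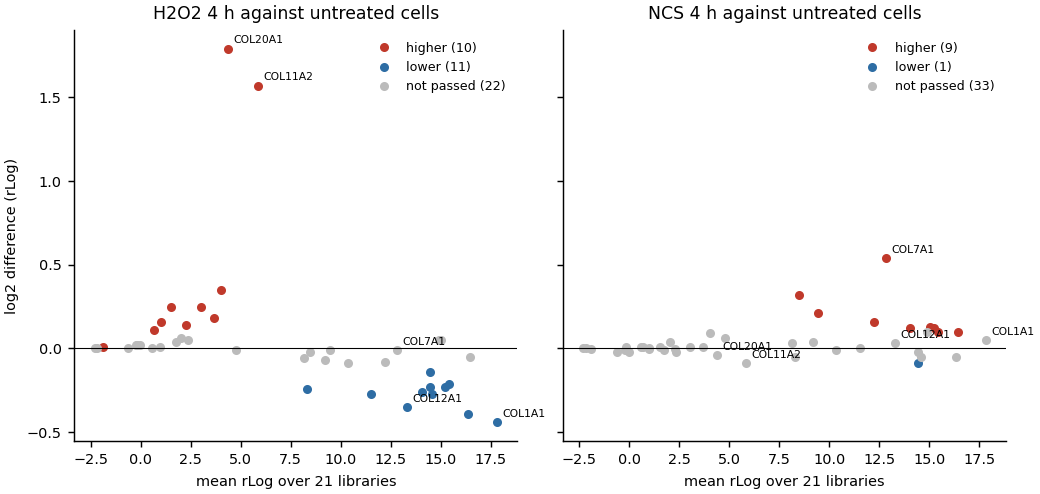
Log2 difference (rLog) from untreated cells at 4 h against the mean rLog over 21 libraries, for 43 collagen genes in H2O2 (left) and NCS (right), coloured by direction past the adjusted p limit. In H2O2 the 10 higher members all lie below a mean of 6 and the 11 lower ones all above 8, whereas in NCS the members that changed all lie above 8.

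The collagens that were higher at 4 h after H2O2 were scarce ones. All 10 members that were higher at that time had a mean rLog under 6, and all 11 that were lower had one above 8. Of the 22 members under 6, 10 were higher and none lower in H2O2 at 4 h, 3 at 8 h and 3 at 24 h, and none was changed in NCS at 4, 8 or 24 h. At 4 h in H2O2 the split was 6 higher and none lower under quantile normalization, 9 and 1 with library medians aligned, and 13 and none with the medians of abundant genes aligned. At 24 h it was 3 and 4 with library medians aligned and 10 and none with the medians of abundant genes aligned. Such early rises were common among scarce genes in general. Of 7270 near-silent genes, 32% were changed in H2O2 at 4 h and 0.66% were lower, and 7 of 18 near-silent collagens were changed, a share close to that of all such genes. The level classes rest on the mean over all libraries, so COL20A1 and COL8A2, which were under 4 in untreated cells and rose in H2O2, were counted as intermediate. In NCS at 4 h 1.05% of near-silent genes were changed. Without these genes, at a mean rLog of at least 5, 12 members were changed in H2O2 at 4 h (1 higher, 11 lower).

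COL20A1, a FACIT collagen (chr20:63293186-63334851), had 3.95, 3.94 and 3.99 in untreated cells. In H2O2 it had 5.67, 5.86 and 5.73 at 4 h, 5.21, 4.75 and 5.17 at 8 h, then 3.95, 4.05 and 4.00 at 24 h. It was 3.47-fold higher at 4 h (log2 difference 1.79, SE 0.08, adjusted p = 8.1e-12), still 1.08 at 8 h, and 0.04 (adjusted p = 0.816) at 24 h. The NCS libraries lay between 3.88 and 3.96, and none of the NCS differences passed.

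COL11A2, the α2 chain of the cartilage fibrillar type XI (chr6:33162681-33192499), followed the same course. It had 5.62, 5.61 and 5.46 in untreated cells, 7.17, 7.19 and 7.04 at 4 h, 6.09, 5.92 and 6.19 at 8 h, then 5.50, 5.73 and 5.54 at 24 h in H2O2. Its difference was 1.57 at 4 h (SE 0.07, adjusted p = 6.7e-12), 0.50 at 8 h and 0.03 (adjusted p = 0.824) at 24 h. NCS libraries lay between 5.41 and 5.62. COL20A1 and COL11A2 were the only members that passed with an absolute rLog difference over 1 in H2O2 at 4 h, as 0.696% of all genes did. The study set its limit of 1 on DESeq2 log2 fold changes. That is another measure, since rLog shrinks differences most strongly where reads are few.

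The other rises were small. COL8A2, a network collagen, had 3.97, 3.92 and 3.93 in untreated cells and 4.37, 4.27 and 4.23 in H2O2 at 4 h (log2 difference 0.35, SE 0.06, adjusted p = 7.44e-05). COL21A1, a FACIT collagen, had 2.97, 2.92 and 2.92 and then 3.23, 3.15 and 3.19 (0.25, adjusted p = 6.68e-05). COL2A1, the type II chain of cartilage, had 1.47, 1.47 and 1.47 and then 1.66, 1.72 and 1.78 (0.25, adjusted p = 1.62e-07), and 9 of its 21 libraries were within 0.01 of its lowest value. COL17A1, a transmembrane collagen of hemidesmosomes, had 3.60, 3.65 and 3.60 and then 3.83, 3.77 and 3.78 (0.18, adjusted p = 0.00383). COL9A3, COL4A4, COL23A1 and COL9A1 were higher by 0.16, 0.14, 0.11 and 0.01. The call of COL9A1 was lost with 1 library left out, and those of COL17A1, COL21A1 and COL4A4 under quantile normalization. The summed share of the members under 6 in all collagen signal was 0.0221% ± 0.000889 in untreated cells and 0.0509% ± 0.00119 in H2O2 at 4 h (SD, n = 3).

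**Figure D5:**
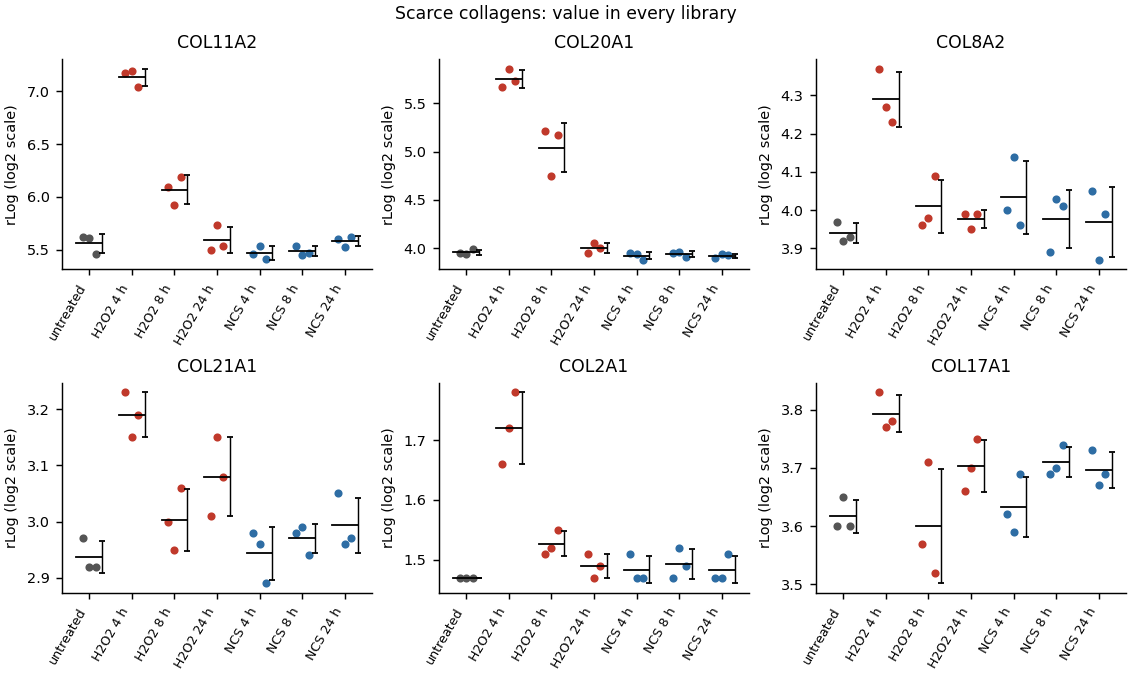
rLog value (log2 scale; each panel has its own range) of COL11A2, COL20A1, COL8A2, COL21A1, COL2A1 and COL17A1 in the 7 groups, with 1 point per library and the mean ± SD of 3 libraries. The 3 H2O2 4 h libraries lie at the top of each panel, for COL21A1 level with 1 H2O2 24 h library, by more than 1 for COL11A2 and COL20A1 over untreated cells and by less than 0.5 for the others.

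The position of these genes was described after their values were seen. For COL11A2, COL9A3, COL20A1, COL8A2 and COL23A1, the nearest coding gene upstream on the same strand lay within 20 kb and had a mean rLog of at least 7. These neighbours were RXRB at 1.1 kb, OGFR at 2.2 kb, ARFGAP1 at 3.4 kb, TRAPPC3 at 11.3 kb and CLK4 at 12.1 kb (GENCODE v29). Such a neighbour was present for 5 of the 10 collagens that were higher and for 5 of the 22 members under 7. Over coding genes with a mean under 7, it was present for 14.6% of 6639, and for 23.4% of the 2196 that were higher in H2O2 at 4 h. The neighbours' own log2 differences in H2O2 at 4 h were 0.12, -0.22, 0.16, 0.11 and -0.03 in this order. COL9A3 also overlaps TCFL5 on the opposite strand, and whether counting used strand is not given in the sources used here.

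Of the other near-silent genes, COL15A1 was higher in H2O2 at 24 h, with 2.46, 2.46 and 2.72 against 2.28, 2.28 and 2.31 in untreated cells (0.26, adjusted p = 0.00118). COL9A2, at an intermediate level, was also higher at that time (0.25, adjusted p = 0.00537). COL25A1, COL4A3, COL28A1, COL10A1, COL19A1, COL24A1, COL14A1, COL6A6, COL22A1 and COL6A5 had no difference from untreated cells past the limit in any group.

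Chains that assemble in one trimer, and COL3A1 with COL1A1, which form separate trimers of the same fibrils, were compared within each library, so gene length cancels in the change between groups. In 30 comparisons with untreated cells, 19 reached 0.1, the smallest two-sided exact permutation p that 3 against 3 libraries allow, and no adjusted p was below 0.158. COL1A1 exceeded COL1A2 by 1.49 ± 0.04 (SD, n = 3) on the rLog scale in untreated cells, by 1.38 ± 0.05 in H2O2 at 24 h and by 1.36 ± 0.03 in NCS at 24 h. The gap went the other way in NCS at 4 h (1.59 ± 0.02), and at 8 h it was 1.53 ± 0.04 after H2O2 and 1.55 ± 0.03 after NCS. COL4A1 minus COL4A2 was -0.25 ± 0.02 in untreated cells and -0.12 ± 0.03 in H2O2 at 24 h. COL5A1 minus COL5A2 was -0.49 ± 0.04 in untreated cells and -0.52 ± 0.04 in H2O2 at 4 h, and between -0.36 and -0.35 in the 5 other treated groups. The exact test used cannot pass the threshold for any of these shifts with 3 libraries against 3. The share of COL6A3 in the summed collagen signal rose to 19.8% ± 0.966 in H2O2 and 13% ± 0.156 in NCS at 24 h, and that of COL1A1 was 30.7% ± 0.871 and 35.2% ± 0.254.

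Genes that make, place and bind collagen were examined as lists, whose counts stand against the shares of all genes given above. Of 18 genes of synthesis and folding, 4 were higher and 1 lower in H2O2 at 4 h, and 4 higher and 8 lower at 24 h. In NCS at 24 h 12 were higher and 1 lower, with a median of 0.17. Between H2O2 and NCS at 24 h, 14 of 18 were lower in H2O2 and 1 higher. Of all genes, 10.9% were lower and 11% higher, and of genes at the abundant level 27.4% were lower. The largest gaps there were those of P4HA1 (-0.51) and LEPREL1 (-0.49), which hydroxylate prolines, and the prolyl isomerase PPIB (-0.30). SERPINH1, the collagen chaperone HSP47, was the one gene higher (0.08). Of 7 secretion entries, among which CTAGE5 and MIA2 are listed separately, 1 was higher and 3 lower in H2O2 at 4 h, and 2 higher and 2 lower at 24 h. The entry higher at 4 h was the near-silent MIA2 (0.30), and CTAGE5 did not pass at that time (0.07, adjusted p = 0.217). CTAGE5, which takes part in the export of large cargo from the endoplasmic reticulum, was higher at 24 h by 0.51, while the vesicle coat genes SEC23A and SEC24D were lower (-0.22 and -0.20). MIA2 did not pass at 24 h (0.05, adjusted p = 0.503).

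Of 13 genes for propeptide cleavage and cross-linking, 1 was higher and 6 lower in H2O2 at 8 h. These included the propeptidases ADAMTS2 (-0.31) and ADAMTS3 (-0.22) and the lysyl oxidase LOXL1 (-0.30). At 24 h 4 were higher and 3 lower in H2O2, and 7 higher and 1 lower in NCS. At 24 h in H2O2 the largest differences were those of ADAMTS2 (0.47), ADAMTS3 (-0.39) and ADAMTS14 (0.31), all propeptidases, and of LOXL4 (0.31), a lysyl oxidase. TLL2, a tolloid-like protease, was the 1 gene higher in H2O2 at 4 h (0.77). It was near-silent, with a mean of 2.91 in untreated cells and 3.68 in H2O2 at 4 h, and early rises were common among near-silent genes. Of 14 genes for degradation and its inhibitors, none was lower in H2O2 at 4 h and 4 were higher, and at 24 h 6 were higher and 3 lower. The metalloprotease genes MMP14 and MMP2 were higher at 24 h by 0.46 and 0.39, and the inhibitor TIMP4 by 1.20. In NCS at 24 h 8 of the 14 were higher and none lower, with MMP14 and MMP2 both at 0.31 and TIMP4 at 0.44.

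Of 10 collagen receptors, 4 were higher and 4 lower in H2O2 at 4 h and at 8 h. The higher ones included near-silent genes, GP6 at both times (0.21 and 0.06) and LAIR1 at 4 h (0.01). Their means in untreated cells were 1.34 and -1.90. At 24 h ITGA2, a collagen-binding integrin subunit, was higher by 0.86 in H2O2 and 0.57 in NCS. ITGA1, the subunit of the other classical collagen integrin, was lower in H2O2 at 4, 8 and 24 h (-0.21, -0.34 and -0.34). Of 15 basement membrane partners of type IV collagen, 9 were lower in H2O2 at 4 h and 10 at 8 h. HSPG2, the proteoglycan perlecan, was lower at both times (-0.52 and -0.66), as was LAMA2, a laminin chain (-0.30 and -0.50). By 24 h this list no longer fell in H2O2, with 4 genes up, 3 down and a median log2 difference of 0.03. NCS at 24 h left 10 of the 15 higher and 1 lower. Compared directly at 24 h, H2O2 was below NCS for 10 of these genes and above it for 2. Of 12 fibril and matrix partners, 5 were higher and 2 lower in H2O2 at 4 h, and 1 higher and 5 lower at 8 h. At 24 h 2 were higher and 7 lower in H2O2, 6 higher and 1 lower in NCS, and 7 of the 12 were lower in H2O2 than in NCS. THBS1, the matricellular protein thrombospondin, was lower in H2O2 at 4, 8 and 24 h (-0.66, -0.91 and -0.64). In NCS it was lower at 24 h (-0.30) and did not pass at 4 or 8 h. FN1, fibronectin, was lower in H2O2 at 4, 8 and 24 h (-0.19, -0.39 and -0.16) and higher in NCS at 24 h (0.17). The tenascin genes TNXB and TNC were higher in H2O2 at 4 h (1.08 and 0.39), and TNXB also at 8 h (0.33). TNXB was scarce, with a mean of 4.01 in untreated cells and 5.10 in H2O2 at 4 h, and early rises were common among scarce genes. TNC was also higher in NCS at 4 h (0.36).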

How the data were processed

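RNA from hTERT-HPNE cells, untreated or 4, 8 or 24 h after H2O2 or NCS, was sequenced as stranded poly(A) libraries in 3 biological replicates per group, and groups were taken from the sample labels. Per the labels and the study's methods, the authors used HISAT2 for alignment, HTSeq for counts per gene and DESeq2 for their transformation, all in Galaxy. The deposited values are rLog values on a log2 scale, normalized for library size and shrunk toward the gene's mean. The submitters' processing notes name hg19, and tool versions, annotation and the strand setting of counting are not given in the sources used here. All value columns matched a sample. Without counts, depth is unknown, and a difference on this scale understates the change of a scarce gene.

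Of 23368 listed genes, 3674 were at 0 in every library and were left out, which left 19694. The names of 28 genes appear as dates, and 2 names are repeated. A linear model with 1 mean per group was fitted to the 21 libraries with limma 3.58.1 in R 4.3.3 (eBayes with a mean trend), and p-values of 11 comparisons and 1 interaction were adjusted over all 19694 genes by the Benjamini-Hochberg method. A gene passed at an adjusted p under 0.05. The script recovered planted changes in data simulated for these genes, a check of the script and not of the single calls reported here. Chains of a trimer were compared with a two-sided exact permutation test. Gene positions and lengths came from GENCODE v29 and upstream sequences from RefSeq, both on GRCh38 and not on the build of the files, so they describe the genes and were not joined to reads. Upstream sequences were found for 31 of the 43 genes.

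The members and gene lists were chosen with earlier results of these data known. Every collagen gene could be named. Values in every library were given for abundant members, for members past the limit with an absolute difference over 0.58, and for at most 5 near-silent members that passed. In each gene list, up to 3 genes with the largest difference were named per comparison described. Alternatives were larger log2 limits, other scalings, a filter on the mean, the replicate number as a block, a fit of only the groups compared and each library left out. The values of 1 gene of the basement membrane list are not reported here.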

Additional observations from a re-analysis of the deposited data

Results flagged for a closer look

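The difference between H2O2 and NCS changed from 4 to 24 h for 18 collagen genes, by limma's interaction term with an adjusted p under 0.05 over all genes, against 39.4% of all genes. Values below are the log2 difference between the agents at 24 h minus that at 4 h. The change was upward for COL6A3 (0.50), which went from -0.14 to 0.35, for COL7A1 (0.47), which went from -0.54 to -0.08, for COL27A1 (0.38) and for COL4A1 (0.21).

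The change was downward for 6 abundant or intermediate genes whose value at 24 h was lower in H2O2 than in NCS, COL5A3 (-0.37), COL11A1 (-0.37), COL3A1 (-0.33), COL8A1 (-0.33), COL4A5 (-0.19) and COL1A2 (-0.13). It was also downward for scarce genes that were higher in H2O2 at 4 h. Among these, COL20A1 (-1.75) went from 1.83 to 0.08 and COL11A2 (-1.66) from 1.66 to 0.01. The others were COL8A2 (-0.25), COL2A1 (-0.23), COL4A4 (-0.18), COL9A3 (-0.17), COL21A1 (-0.16) and COL23A1 (-0.10). The calls of COL1A2, COL8A2 and COL21A1 were lost with 1 library left out. With 3 libraries per group, single outlying libraries were not tested for.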

How the results depend on the processing

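Counts of changed members are given in the order H2O2 at 4 h, NCS at 4 h, H2O2 at 8 h, NCS at 8 h, H2O2 at 24 h, NCS at 24 h, H2O2 against NCS at 4, 8 and 24 h, 24 h against 4 h in H2O2 and in NCS, and the change of the difference between the agents. With an absolute log2 difference over 0.58 they were 2, 0, 1, 1, 2, 2, 2, 1, 0, 4, 1 and 2. With a limit of 1 they were 2, 0, 1, 0, 0, 0, 2, 1, 0, 2, 0 and 2, so most collagen changes were smaller than 1 on the rLog scale. The study set its limit of 1 on DESeq2 log2 fold changes, which are not shrunken rLog differences, so the counts are not those of the study's limit. Among genes with a mean rLog of at least 5, the counts that moved by over 1.5 times were 12 (H2O2 at 4 h), 10 (NCS at 8 h), 16 (H2O2 against NCS at 4 h) and 16 (H2O2 from 4 to 24 h), which follows in part from fewer members being tested. Quantile normalization gave 5 for NCS at 4 h. Aligned library medians gave 13 for NCS at 8 h and 30 for the change of the difference. An alternative chosen after seeing the data, aligned medians of genes with a mean of at least 10, gave 15 for NCS at 8 h and 20 for NCS at 24 h. The causes were not tested. COL1A1 exceeded COL6A3 by 1.38 in mean rLog and by 2.06 per length.

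With 1 library left out, the counts in the same order ranged from 20 to 24, 5 to 10, 20 to 21, 4 to 6, 19 to 22, 12 to 16, 24 to 28, 20 to 24, 16 to 19, 22 to 26, 15 to 17 and 16 to 20. The count for NCS at 4 h was 5 without untreated replicate 1, and 6 without NCS 4 h replicate 1 or 2. The 8 abundant fibrillar and basement membrane collagens were lower in H2O2 at 4 and 8 h under all of these settings except the limits of 0.58 and 1, which none of them passed. At 24 h, 7 were lower, and 4 passed as lower under quantile normalization.

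Replicate numbers were not taken to pair the libraries, since the labels tie them to no shared batch and deviations of libraries with the same number had correlations from -0.149 to 0.213 (mean 0.0274, against -0.0137 for different numbers). Deviations from a group mean cancel within the group, so the second mean largely follows from the first and is no separate comparison. As a hint from the data, 13 of 21 libraries correlated best with their own number, more than an even spread over the 3 numbers gives. With the replicate number as a block, 22, 11, 22, 6, 23, 13, 26, 23, 19, 25, 18 and 19 members changed, and 3 of 225 calls were lost. Of the same 225 calls, quantile normalization lost 42 and changed the sign of 6. Aligned library medians lost 7 and changed the sign of 1, and aligned medians of abundant genes lost 13 and changed the sign of 2. The fit of only the groups compared lost 27, and 37 were lost with at least 1 library left out.

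Values that changed sign were as follows. Under quantile normalization they were COL6A3 0.145 for H2O2 at 4 h, COL1A1 0.062 for H2O2 at 24 h, COL6A3 0.145 and COL14A1 -0.00287 for H2O2 against NCS at 4 h, COL6A2 0.0132 for H2O2 against NCS at 24 h, COL4A2 0.037, COL21A1 0.027 and COL14A1 0.0248 for H2O2 from 4 to 24 h. With library medians aligned they were COL9A1 -0.00734 for H2O2 at 4 h, COL22A1 -0.0208 for NCS at 8 h, COL9A1 -0.0171 and COL6A5 -0.0182 for H2O2 at 24 h, COL9A1 0.0211, COL22A1 0.019 and COL6A5 0.0214 for H2O2 against NCS at 8 h, COL9A1 -0.0238 and COL6A5 -0.0254 for H2O2 against NCS at 24 h, COL6A5 -0.0235 for the change of the difference between the agents. With the medians of abundant genes aligned they were COL22A1 0.0157 and COL6A5 0.0158 for H2O2 at 4 h, COL9A1 0.0326, COL22A1 0.0329 and COL6A5 0.033 for NCS at 4 h, COL14A1 0.0348, COL9A1 0.0358 and COL6A5 0.0359 for NCS at 8 h, COL24A1 0.0418 and COL22A1 0.0421 for H2O2 at 24 h, COL9A1 0.0254, COL22A1 0.0257 and COL6A5 0.0258 for NCS at 24 h, COL9A1 -0.00931, COL22A1 -0.0172 and COL6A5 -0.0173 for H2O2 against NCS at 4 h, COL22A1 0.0164 for H2O2 against NCS at 24 h, COL6A6 0.00297, COL9A1 0.0208 and COL22A1 0.0264 for H2O2 from 4 to 24 h, COL9A1 0.0279 and COL22A1 0.0336 for the change of the difference between the agents.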
